A study of Homo sapiens with 8 samples.

Results

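SOCS1, SOCS2, SOCS3, SOCS4, SOCS5, SOCS6, CISH, PIM1, PIM2 and PIM3 are the 10 genes described here, out of 17687 genes with a named probe set on the array. They were taken by gene symbol, as a group chosen with earlier results of these data known, and each has 1 probe set. RNA of CUTLL1 cells, a human T-cell line with a t(7;9) rearrangement and aberrant NOTCH1 activation, was profiled with 8 Clarion S Human arrays that make up 4 groups of 2. All 8 cultures had been transduced with a GFP lentivirus and sorted by flow cytometry, either with the empty vector (Empty-V cells) or with the same backbone carrying the polycistronic miRNA cluster that MIR17HG hosts (cluster cells). Each was then kept for 2 days with 1 µM of a γ-secretase inhibitor (GSI), which blocks the release of the NOTCH1 intracellular domain, or with DMSO as control. The cluster was expressed constitutively, from a backbone whose name lists the PGK promoter, in a transduced pool of 1 cell line. The growth medium given for the cells names no cytokine.

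Cytokine receptors of this class have no kinase of their own and signal through JAK kinases, which phosphorylate STAT transcription factors. SOCS1, SOCS2, SOCS3 and CISH are induced by STATs and feed back on the same receptors. In SOCS proteins and CISH an SH2 domain binds the phosphorylated receptor or JAK, and a SOCS box recruits elongins and a cullin ubiquitin ligase. SOCS1 and SOCS3 also block JAK activity directly. PIM1, PIM2 and PIM3 are serine/threonine kinases that are active once made, so their RNA level matters for their activity. PIM1 is a STAT5 target, and PIM kinases cooperate with MYC in mouse lymphoma. In T-cell precursors this axis is known mainly for its part downstream of the IL7 receptor.

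The cluster encodes 6 miRNAs, and their sequences are shown because the vector of cluster cells adds copies of them. The study also found members of this cluster in CUTLL1 cells that had not been given it. Empty-V cells are therefore not free of these miRNAs, and their levels in the 8 cultures are not described here. The main mature arms of RefSeq (GRCh38.p14, chromosome 13, plus strand) follow, 5′ to 3′, with bases 2 to 8, the seed that pairs with target RNAs, in capitals. The sequence of the transduced construct itself was not used here.
hsa-miR-17-5p: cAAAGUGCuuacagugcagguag
hsa-miR-20a-5p: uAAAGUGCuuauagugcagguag
hsa-miR-18a-5p: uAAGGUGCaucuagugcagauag
hsa-miR-19a-3p: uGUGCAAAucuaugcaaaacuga
hsa-miR-19b-3p: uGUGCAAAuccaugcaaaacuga
hsa-miR-92a-3p: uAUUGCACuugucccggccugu
The first pair shares its seed and so do hsa-miR-19a-3p and hsa-miR-19b-3p, while hsa-miR-18a-5p and hsa-miR-92a-3p each have a seed of their own.

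Promoter windows (250 bases before to 50 after the start site, RefSeq, GRCh38.p14) were at hand for 8 of the 10 genes. The windows of SOCS1 and CISH are shown, the former for the gene that passed the test below and the latter for its STAT motifs. In that of SOCS1 the capitals mark the letters of an interferon response element, GAAA and again GAAA with NN between (TTTC on the other strand, both of which were searched). It starts 113 bases before the start site. This motif was in 3.57% of 35116 windows of the same length.
SOCS1, chr16:11256155-11256454, minus strand: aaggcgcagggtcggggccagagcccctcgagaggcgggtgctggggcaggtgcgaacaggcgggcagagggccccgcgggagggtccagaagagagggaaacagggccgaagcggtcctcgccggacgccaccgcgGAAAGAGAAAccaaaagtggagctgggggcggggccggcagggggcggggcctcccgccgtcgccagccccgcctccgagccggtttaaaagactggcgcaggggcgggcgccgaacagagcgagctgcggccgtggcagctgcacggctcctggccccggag
In that of CISH the capitals mark TTCNNNGAA, the letters bound by STAT5 dimers, which read the same on both strands.
CISH, chr3:50611725-50612024, minus strand: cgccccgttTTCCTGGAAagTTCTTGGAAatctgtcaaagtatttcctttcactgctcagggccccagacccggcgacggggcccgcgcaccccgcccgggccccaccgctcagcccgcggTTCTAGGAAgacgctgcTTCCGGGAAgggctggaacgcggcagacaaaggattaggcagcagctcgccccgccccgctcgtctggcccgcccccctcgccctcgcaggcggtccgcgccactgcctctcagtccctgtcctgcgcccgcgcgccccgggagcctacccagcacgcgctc
CISH held 4 matches, which start 241, 230, 129 and 112 bases before the start site. Of all 35116 windows 7.66% held at least 1 match and 0.0199%, 7 windows, held 4 or more. No window of the other 7 genes held TTCNNNGAA. A window of SOCS3 alone held TGGGAA or TTCCCA, the core of the RBPJ motif through which NOTCH1 binds DNA, found in 24.0% of all windows. A match of letters is a description and not a bound site.

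Values are log2 signals as the authors deposited them, and a difference of 1 is a doubling. T-cell markers were at 12.4 to 12.9 on average over 8 genes on the arrays. Lists of B-cell, myeloid, stromal or epithelial and erythroid markers averaged 3.90 to 5.67. Yet 3 of 5 B-cell, 1 of 7 myeloid, 2 of 6 stromal or epithelial and 1 of 4 erythroid genes had means above 5.32. That value is the median of all values. The highest of these genes, KRT8 at a mean of 8.23, stood above the lowest T-cell marker at 8.16. All 7 NOTCH1 target genes used as a check fell with GSI across vectors, NRARP from a mean of 10.27 to 4.36. A bulk array cannot tell fewer cells of a kind from less RNA per cell. Differences were fitted with limma over all 21448 probe sets, and p-values were adjusted over all of them (Benjamini-Hochberg, threshold 0.05). The arrays of a group stand for independent biological experiments according to the study's methods. The p-values rest on the spread between the 2 arrays of a group, pooled over the 4 groups. For each probe set limma also draws this spread toward a value estimated from all probe sets. An exact permutation of 2 against 2 arrays cannot go below p = 0.333, the value that 2 groups without overlap give. How many of all probe sets had groups without overlap was not counted. Statements on overlap below therefore describe the values and are not a result about the 10 genes. Across the 10 genes the arrays of a group differed by a median of 0.185 to 0.335 and by at most 0.75.

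Of the 10 genes SOCS1 alone passed the test with GSI, where it was 1.92-fold higher across vectors. None of the 10 passed for the cluster, with PIM1 nearest to the threshold. The signal of SOCS2, SOCS3, SOCS6 and CISH lay below 5.32, the median of all values, on each array, and that of SOCS4, SOCS5, PIM1, PIM2 and PIM3 above it. That of SOCS1 crossed it, below it on the 4 DMSO arrays and above it on the 4 GSI arrays. SOCS2, SOCS3 and CISH, known as STAT-induced feedback genes, were thus dim in all 4 groups.

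**Figure D1:**
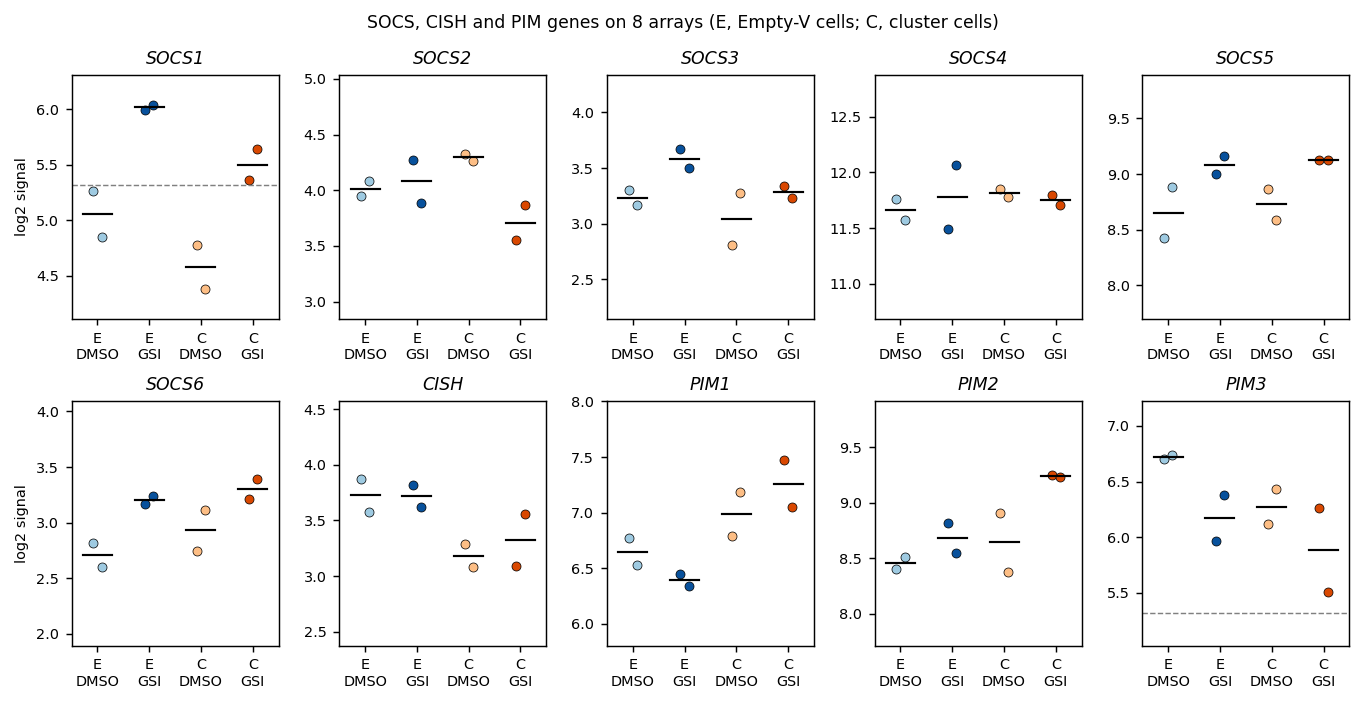
Log2 signal (vertical axes, each spanning 2.2 units) of the 10 genes by group (horizontal axes; E, Empty-V cells, and C, cluster cells). Points are arrays, black lines the means of 2, and the dashed line is the median of all values, 5.32. The 4 GSI arrays of SOCS1 lie above its 4 DMSO arrays.

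SOCS1 (probe set TC1600009395.hg.1, chromosome 16 from 11254417 to 11256204; gene coordinates are those of RefSeq, GRCh38.p14) encodes a direct inhibitor of JAK kinases. In Empty-V cells the signal was 5.26 and 4.85 with DMSO and 5.99 and 6.04 with GSI (sets 1 and 2). The cluster cells gave 4.78 and 4.38 with DMSO and 5.36 and 5.64 with GSI. Within each vector the GSI arrays thus lay above the DMSO arrays without overlap, and at each treatment the cluster arrays lay below the Empty-V arrays. The log2 fold change with GSI across vectors was 0.94 (standard error 0.15, 95% interval 0.61 to 1.27, adjusted p = 0.00511 from limma). Across all probe sets 7.83% passed in this comparison, 4.35% upward and 3.48% downward, so 1 of 10 is near the share of the whole array. This call held when set number was added to the model (adjusted p = 0.0120) and when any 1 array was dropped (adjusted p from 0.00772 to 0.0250). In Empty-V cells the change was 0.96 (adjusted p = 0.0262) and in cluster cells 0.92 (adjusted p = 0.0733), and the difference between them was -0.04 (95% interval -0.71 to 0.63, adjusted p = 0.968). The call in Empty-V cells was lost with set number in the model (adjusted p = 0.0548), without Empty-V DMSO replicate 2 (adjusted p = 0.175) and without Empty-V GSI replicate 1 or 2 (adjusted p = 0.0831 and 0.129). SOCS1 was lower with the cluster in all 4 same-numbered pairs, by 0.40 to 0.63, but did not pass. The log2 fold change with the cluster was -0.48 under DMSO (adjusted p = 0.510) and -0.52 under GSI (adjusted p = 0.246). Averaged over both treatments, a comparison added after the data were seen, it was -0.495 (95% interval -0.83 to -0.16, adjusted p = 0.167 from limma).

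SOCS3 (chromosome 17 from 78356778 to 78360925), the inhibitor of receptors that share gp130, stood at 3.30 and 3.17 with DMSO and 3.67 and 3.5 with GSI in Empty-V cells, and at 2.81 and 3.28 and then 3.34 and 3.23 in cluster cells. The Empty-V arrays with GSI were the highest, and the mean of the 8 arrays lay at percentile 12.9 of all probe sets. Its log2 fold change with GSI across vectors was 0.30 (95% interval -0.01 to 0.60, adjusted p = 0.235 from limma).

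SOCS2 (chromosome 12 from 93569969 to 93626236) restrains growth hormone signalling and is itself a STAT5 target. In Empty-V cells it was 3.95 and 4.08 with DMSO and 4.27 and 3.89 with GSI, and in cluster cells 4.33 and 4.26 with DMSO and 3.55 and 3.87 with GSI. The groups overlapped in Empty-V cells and did not in cluster cells, where the GSI arrays were lower. The log2 fold change was 0.07 in the former and -0.59 in the latter, neither of which passed (adjusted p = 0.887 and 0.200), and the difference of -0.65 did not pass either (95% interval -1.26 to -0.04, adjusted p = 0.375).

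CISH (chromosome 3 from 50606489 to 50611774), which binds the IL2 receptor and phospholipase C gamma in T cells, was 3.87 and 3.58 with DMSO and 3.82 and 3.62 with GSI in Empty-V cells. The cluster cells gave 3.29 and 3.08 with DMSO and 3.09 and 3.56 with GSI. The GSI and DMSO arrays overlapped in both kinds of cells, and each cluster array lay below each Empty-V array. Its log2 fold change with GSI was -0.01 in Empty-V and 0.14 in cluster cells (95% intervals -0.47 to 0.46 and -0.33 to 0.61, adjusted p = 0.991 and 0.816). With the cluster it was -0.54 under DMSO and -0.40 under GSI (adjusted p = 0.460 and 0.360). Averaged over both treatments, which was added after the data were seen, it was -0.47 (adjusted p = 0.181 from limma). Its promoter window, shown above, was the only one of the 8 genes with the STAT letters, and its mean signal lay at percentile 18.4 of all probe sets.

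SOCS4 and SOCS5 are known as regulators of EGF receptor signalling. SOCS4 (chromosome 14 from 55027236 to 55049489) had the narrowest range of the 10, from 11.49 to 12.07 on the 8 arrays, with both ends in Empty-V cells with GSI. Its log2 fold change with GSI across vectors was 0.03 (95% interval -0.30 to 0.36, adjusted p = 0.939).
SOCS5 (chromosome 2 from 46698937 to 46763129) was 8.43 and 8.88 with DMSO and 9.00 and 9.16 with GSI in Empty-V cells, and 8.87 and 8.59 and then 9.13 and 9.13 in cluster cells. Each GSI array lay above each DMSO array. The change across vectors was 0.41 (95% interval 0.10 to 0.73) and did not pass (adjusted p = 0.110 from limma), nor with set number in the model (adjusted p = 0.195). It passed when dim probe sets were left out (adjusted p = 0.0479), where 2509 probe sets passed instead of 1680. Without each array in turn the change was 0.30 to 0.525.
SOCS6 (chromosome 18 from 70289045 to 70330199), an adaptor that binds KIT and LCK, was 2.82 and 2.60 with DMSO and 3.17 and 3.24 with GSI in Empty-V cells, and 2.75 and 3.11 and then 3.21 and 3.39 in cluster cells. Here too each GSI array lay above each DMSO array, at the lowest signal of the 10 genes (percentile 6.34). The change across vectors was 0.43 (95% interval 0.14 to 0.72, adjusted p = 0.0780).

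By another measure, an absolute Pearson correlation above 0.8 with the GSI trait over the 8 arrays was reached by SOCS1 (r = 0.847), SOCS6 (r = 0.833) and SOCS5 (r = 0.824), and by 9.14% of all probe sets. For the trait that sets Empty-V GSI arrays apart from the rest none of the 10 reached it, against 10.1% of all probe sets, and the highest were SOCS1 at 0.757 and SOCS3 at 0.733. These correlations are over 8 arrays that fall into 4 groups and were not tested.

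PIM1 (TC0600007862.hg.1, chromosome 6 from 37170152 to 37175428) was 6.77 and 6.53 with DMSO and 6.45 and 6.34 with GSI in Empty-V cells. The cluster cells gave 6.79 and 7.19 with DMSO and 7.47 and 7.05 with GSI. Each cluster array lay above each Empty-V array, by the narrowest margin under DMSO. Its log2 fold change with the cluster was 0.87 under GSI (standard error 0.21, 95% interval 0.39 to 1.34, adjusted p = 0.0820 from limma) and 0.34 under DMSO (adjusted p = 0.634). The share of all probe sets that passed was 1.07% under GSI (0.499% higher and 0.573% lower) and 0.042% under DMSO (0.0186% and 0.0233%). Under GSI PIM1 passed when dim probe sets were left out (adjusted p = 0.0346), where 912 probe sets passed instead of 230. It also passed with a robust fit that lets variance follow intensity (adjusted p = 0.0425), where 1232 probe sets passed. It was farther from passing with set number in the model (adjusted p = 0.171) and without each of the 8 arrays in turn (adjusted p from 0.0926 to 0.319). Averaged over both treatments, a comparison added after the data were seen, PIM1 was 1.52-fold higher with the cluster (log2 fold change 0.60, 95% interval 0.27 to 0.94, adjusted p = 0.105), where 0.821% of all probe sets passed. With GSI it was lower by 0.26 in Empty-V cells and higher by 0.27 in cluster cells, and neither passed (adjusted p = 0.537 and 0.608, difference 0.53 with adjusted p = 0.495).

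PIM2 (chromosome X from 48913182 to 48919024), a PIM kinase well expressed in lymphoid cells, was 8.40 and 8.51 with DMSO and 8.82 and 8.55 with GSI in Empty-V cells, and 8.91 and 8.38 and then 9.25 and 9.23 in cluster cells. The cluster cells with GSI stood above the other 6 arrays, and the cluster arrays with DMSO spanned all 4 Empty-V arrays. The log2 fold change with GSI in cluster cells was 0.60 (95% interval 0.13 to 1.06, adjusted p = 0.223) and with the cluster under GSI 0.56 (95% interval 0.09 to 1.02, adjusted p = 0.204).
PIM3 (chromosome 22 from 49960772 to 49964072) went the other way, at 6.70 and 6.74 with DMSO and 5.97 and 6.38 with GSI in Empty-V cells, and 6.12 and 6.43 and then 6.26 and 5.51 in cluster cells. The Empty-V arrays with DMSO were the highest, and the 2 cluster arrays with GSI lay 0.75 apart, the widest gap within a group among the 10 genes. Its change with GSI across vectors was -0.47 (95% interval -0.88 to -0.06, adjusted p = 0.162).

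**Figure D2:**
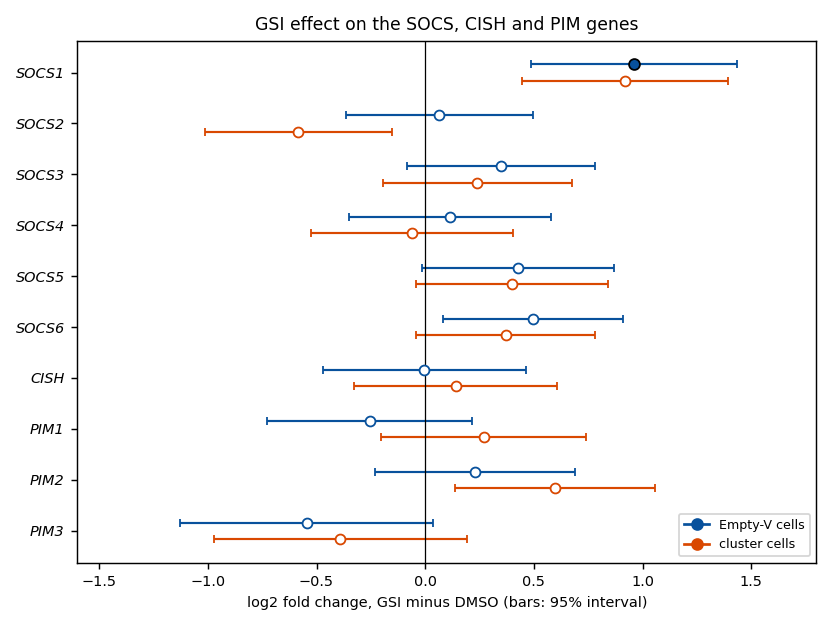
Log2 fold change with GSI (horizontal axis) of each gene (vertical axis) in Empty-V cells (blue) and cluster cells (orange), with 95% intervals from limma. The filled point passed the adjusted threshold of 0.05 and open points did not; SOCS1 lies at 0.96 and 0.92.

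**Figure D3:**
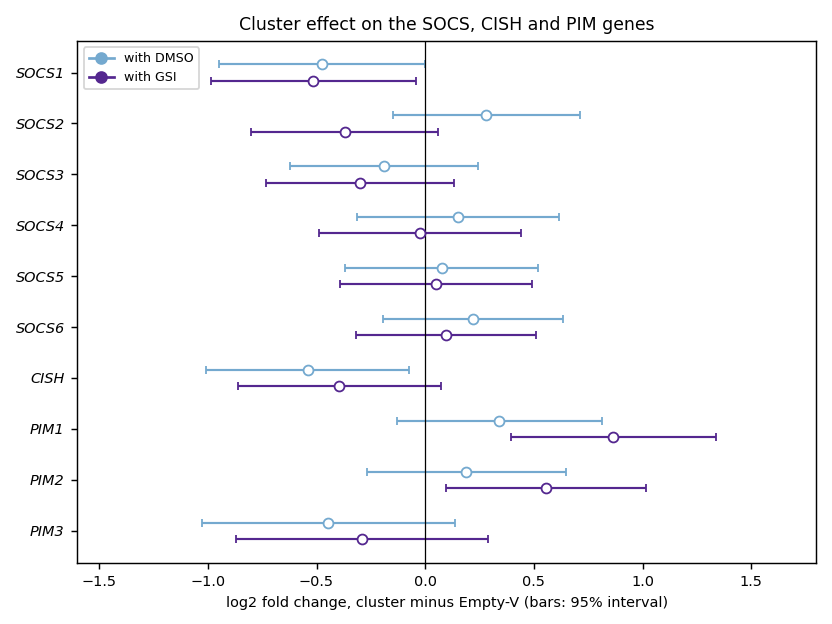
Log2 fold change with the cluster against Empty-V (horizontal axis) of each gene (vertical axis) with DMSO (light blue) and with GSI (purple), with 95% intervals from limma. No point passed the adjusted threshold; the farthest from 0 is PIM1 with GSI, at 0.87.

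By comparison, the 10 genes gave 1 call in Empty-V cells with GSI (7.46% of all probe sets passed, 3.8% higher and 3.66% lower), 0 in cluster cells with GSI (1.57%), 0 for the cluster under DMSO or under GSI and 0 for the difference in GSI response between the vectors (0.028%), all from limma. At an unadjusted p below 0.05 they numbered 2, 3, 2, 3 and 1 in the same order, where 22.3%, 14.5%, 9.75%, 17.9% and 12.6% of all probe sets lay. With GSI across vectors they numbered 5, beside 23.1% of all probe sets. The median log2 fold change of the 10 with GSI across vectors was 0.18, with 8 above 0 and 2 below, beside a median of 0.00 over all probe sets. With the cluster it was 0.11 under DMSO, with 6 above 0 and 4 below, beside -0.01 over all, and -0.16 under GSI, with 4 above 0 and 6 below, beside -0.015 over all. Averaged over treatments it was 0.009, with 5 above 0 and 5 below. The order of the 4 groups also differed between genes: SOCS1 was highest in Empty-V cells with GSI, PIM1 and PIM2 in cluster cells with GSI, PIM3 in Empty-V cells with DMSO and SOCS2 in cluster cells with DMSO. The comparisons share arrays, so their values are not independent of each other.

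The genes whose profile over the 8 arrays was most like that of SOCS1 were KRABD2 (r = 0.994), ODF2L (r = 0.987) and SLC14A1 (r = 0.984). For SOCS6 they were TRAPPC6B, ATP7A and C9 (r = 0.990 to 0.971), and for SOCS5 ZNF345, MTMR8 and USP33 (r = 0.970 to 0.962). They were picked from the whole array, and the 8 arrays share the same 4 groups.

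The pathway around the 10 genes was read from 7 lists with 102 measured genes. With GSI across vectors 14 of them passed, with 13 of these also called with set number in the model and 10 whichever array was dropped. In Empty-V cells 20 passed, 9 with set number and 5 whichever array was dropped, and in cluster cells 6, 2 and 0. Over all probe sets 7.83%, 7.46% and 1.57% passed in these comparisons, and 4.69%, 3.85% and 0.83% with set number in the model.

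Of 26 cytokine receptor genes IL10RB rose and IL7R fell with GSI across vectors, the former keeping its call in 4 of the 8 fits that leave out 1 array (adjusted p up to 0.0679). IL7R, the receptor of the growth factor of T-cell precursors, went from 15.92 and 15.85 to 14.87 and 15.16 in Empty-V cells and from 16.10 and 16.02 to 14.97 and 15.25 in cluster cells. All GSI arrays were below all DMSO arrays, by a mean of 0.91 on the log2 scale (log2 fold change -0.91, adjusted p = 0.00245). IL2RB and IL4R rose in Empty-V cells, by 0.74 and 1.00 (adjusted p = 0.0227 and 0.0413), and had changes of 0.08 each in cluster cells. Both calls were lost with set number in the model (adjusted p = 0.0692 and 0.0731), and they held in 4 and in 1 of the 8 fits that leave out 1 array (adjusted p up to 0.143 and 0.219). Their differences between vectors did not pass (adjusted p = 0.294 and 0.336). Of 9 JAK and STAT genes JAK1 and STAT3 rose across vectors and none fell. STAT3 was 7.27 and 7.38 with DMSO and 9.24 and 9.02 with GSI in Empty-V cells, and 8.46 and 8.48 and then 8.71 and 8.81 in cluster cells. It rose by 1.81 in the former (adjusted p = 2.42e-04) and had a change of 0.29 in the latter (adjusted p = 0.456), with a difference of -1.52 that did not pass (adjusted p = 0.0901). JAK1 rose by 1.21 and STAT5A, a main inducer of CISH and PIM1, by 1.03 in Empty-V cells (adjusted p = 0.00318 and 0.0229), and STAT5A kept its call in 5 of the 8 fits that leave out 1 array (adjusted p up to 0.152). In cluster cells JAK1 had a change of 0.36 (adjusted p = 0.367) and STAT5A of 0.10 (adjusted p = 0.881), and neither difference between vectors passed (adjusted p = 0.244 and 0.293). CISH and PIM1 did not pass in either kind of cell, with values as given above.

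Among 12 other inhibitors of the pathway, CBLB, a ubiquitin ligase that restrains T-cell activation, rose with GSI across vectors by 0.87 (adjusted p = 0.00167). PTPN2, a phosphatase of JAK1 and STAT proteins, fell by 0.63 (log2 fold change -0.63, adjusted p = 0.00909), and the other 10 did not pass. Of 8 partners of the SOCS box none passed with GSI across vectors, with 1 at an unadjusted p below 0.05. ELOB, which encodes elongin B, was lower with GSI in Empty-V cells (log2 fold change -0.88, adjusted p = 0.0476), and so was RBX1, the RING subunit of cullin ligases (-0.73, adjusted p = 0.0476). Both missed the threshold with set number in the model (adjusted p = 0.0963 and 0.102). In cluster cells their changes were 0.18 and 0.20 (adjusted p = 0.774 and 0.690), where all 8 partners had changes above 0 and none passed, and the differences between vectors did not pass (adjusted p = 0.270 and 0.260). UBE2F, the NEDD8 conjugating enzyme that serves CUL5, was 8.69 and 8.33 with GSI in Empty-V cells and 9.82 and 9.72 with GSI in cluster cells. Under DMSO it was 8.42 and 8.32 against 9.26 and 9.30. All cluster arrays were above all Empty-V arrays, by 1.26 under GSI (adjusted p = 0.0213) and by 1.09 averaged over treatments (adjusted p = 0.0108). The former missed the threshold with set number in the model (adjusted p = 0.0636) and both did without some arrays (adjusted p up to 0.158 and 0.0612).

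Of 16 STAT target genes other than the 10, IKZF3 and BCL2L1 rose, IRF1 fell and 13 did not pass with GSI across vectors. IKZF3, which encodes the lymphoid factor Aiolos, rose by 1.47 (adjusted p = 8.58e-05). BCL2L1, which encodes the survival protein BCL-XL, rose by 0.58 (adjusted p = 0.0133, and up to 0.0546 without 1 array). IRF1, an interferon-induced activator, was 6.21 and 6.48 with DMSO and 5.04 and 5.06 with GSI in Empty-V cells, and 5.92 and 5.75 and then 5.41 and 5.58 in cluster cells. Across vectors it fell by 0.82 (log2 fold change -0.82, adjusted p = 0.00362). Of 15 interferon response genes IRF9 rose by 0.86 (adjusted p = 0.00193), XAF1 fell by 0.72 (log2 fold change -0.72, adjusted p = 0.00617) and 13 did not pass, with 5 of the 15 above 0 and 10 below.
Among 16 PIM substrates and related genes CDKN1B rose and EIF4EBP1 and CDKN1A fell with GSI across vectors, the first keeping its call in 4 of the 8 fits that leave out 1 array (adjusted p up to 0.0635). EIF4EBP1, a repressor of cap-dependent translation, fell by 1.54 on the log2 scale (means 8.18 and 6.64, adjusted p = 2.48e-04). CDKN1A, a cell cycle inhibitor, had means of 4.17 and 3.60, both below 5.32, and lost its call with set number in the model (adjusted p = 0.0999). Under GSI CDC25A was higher with the cluster by 1.14 and NFATC1 lower (log2 fold change -0.96), both with an adjusted p of 0.0396 and both lost with set number in the model (adjusted p = 0.104 and 0.0989).

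**Figure D4:**
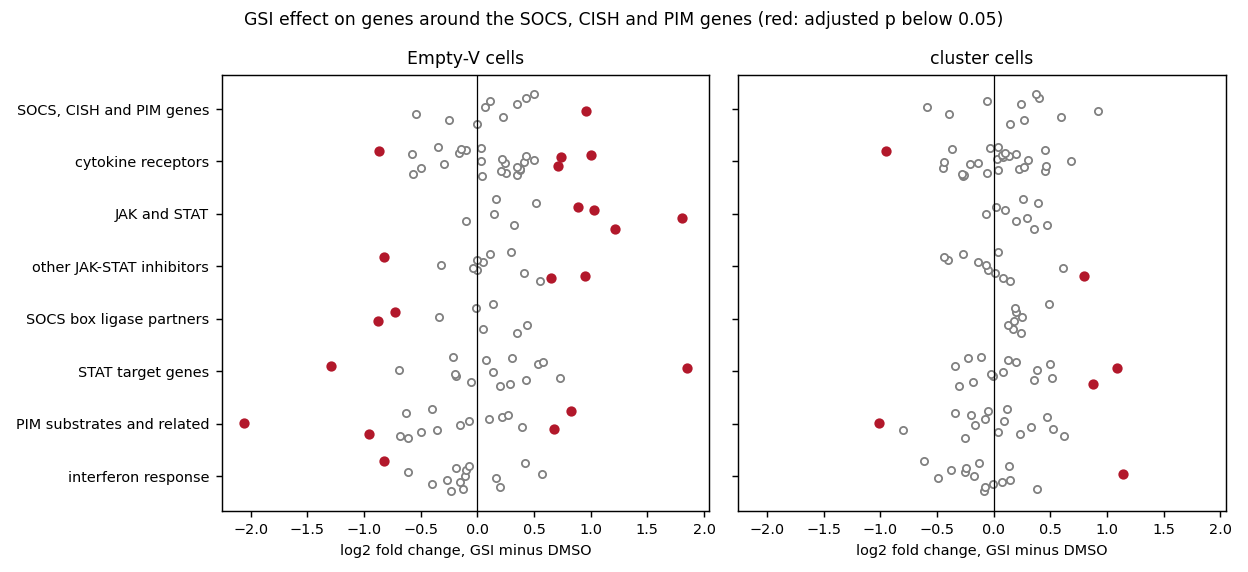
Log2 fold change with GSI (horizontal axes) of the genes of each list (rows) in Empty-V cells (left) and cluster cells (right). Each point is a gene, red where the adjusted p was below 0.05. In Empty-V cells 20 of the 102 genes outside the top row are red and in cluster cells 6, and in the top row SOCS1 alone is red, in Empty-V cells.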

How the data were processed

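RNA of CUTLL1 cells was profiled with 8 Clarion S Human arrays. The authors summarized probes to gene level with SST-RMA in Transcriptome Analysis Console (hg38), which corrects background and brings arrays to a common distribution, and deposited log2 values, used here without further scaling. Groups were taken from the sample titles. Precision is limited by having 2 arrays in a group. Gene names come from the platform annotation, updated to RefSeq, with 17709 of 21448 probe sets named, and 139 of 146 genes in the lists were measured. For list genes with several probe sets, the one with the highest mean was used.

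Values were fitted as 4 group means in limma 3.58.1 (R 4.3.3), with 4 residual and 5.29 prior degrees of freedom, for 6 comparisons and 1 added after the data were seen. Simulated data were used to test the script. Figures and sequences were handled in Python 3.11.15 with pandas 2.3.3 and matplotlib 3.10.9. The genes and lists were chosen with earlier results of these data known. Named are all 10 genes, up to 3 called genes per list and comparison, and the 3 closest profiles of 3 genes. As alternatives, set number was added to the model as a block, the threshold was raised to 0.1, dim probe sets (mean under 5.32) were dropped, arrays were quantile normalized, variance was fitted robustly along intensity, each fit was limited to its 4 arrays, and each array was dropped in turn. Crossed set numbers, the block within 4 arrays and the trait correlations were added after the data were seen.

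Set numbers in the sample titles were read as the 2 independent experiments that the methods name, and so as pairing the arrays. Deviations of same-numbered arrays from their group means correlated at -0.240 to -0.192 over probe sets for the 6 pairs of groups, a sign that differences between groups vary somewhat more than the model without the block takes them to.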

Additional observations from a re-analysis of the deposited data

How the results depend on the processing

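Over 995 values of the 10 genes under alternatives, 13 changed their side of the threshold, none of a called value changed sign, and 42 uncalled ones did. With GSI across vectors 1 of the 10 genes was called and 2 at a threshold of 0.1, the second being SOCS6. Without dim probe sets it was also 1, but SOCS5 in place of SOCS1, which is then not tested. In Empty-V cells the 1 call, SOCS1, became 0 with the set as a block, with the block within the 4 arrays compared (adjusted p = 0.108) and without dim probe sets, since SOCS1 has a mean of 5.29, and 0 to 1 without each array. In cluster cells the 0 calls became 1 at a threshold of 0.1 (SOCS1). For the cluster under GSI the 0 calls became 1, PIM1, at a threshold of 0.1, without dim probe sets and with variance fitted robustly along intensity, and averaged over treatments 1, again PIM1, without dim probe sets (adjusted p = 0.0457). With the set as a replicate block no other call of the 10 genes changed.
Over all probe sets, the counts with the block, without each array, and with variance along intensity were 1006, 953 to 1341 and 2673 instead of 1680 for GSI across vectors. They were 825, 514 to 1310 and 2551 instead of 1601 in Empty-V cells, and 178, 127 to 285 and 721 instead of 336 in cluster cells. For the cluster they were 33, 4 to 85 and 1232 instead of 230 under GSI, 3, 0 to 3 and 45 instead of 9 under DMSO, and 25, 6 to 37 and 726 instead of 176 averaged over treatments. For the difference between vectors they were 1, 0 to 2 and 111 instead of 6. With crossed numbers in the 4 arrays compared, 447, 117, 0 and 1 were called for GSI in Empty-V cells, GSI in cluster cells, and the cluster under DMSO and GSI, none of them among the 10 genes. At a threshold of 0.1 the counts were 2727, 2599, 623, 927, 525 and 21 for GSI across vectors, in Empty-V and in cluster cells, the cluster under GSI and averaged over treatments, and the difference, and without dim probe sets 2509, 2358, 581, 912, 535 and 14 (43 for the cluster under DMSO). From only the 4 arrays compared they were 841 (GSI, Empty-V cells), 177 (GSI, cluster cells), and 0 and 34 for the cluster under DMSO and GSI, and with the block within them 342, 60, 0 and 1. Signal near background limits what can be seen of SOCS2, SOCS3, SOCS6 and CISH. The median of 5.32 is not a detection limit. SOCS1, at a mean of 5.29, lay between the lowest and the highest B-cell marker means, 3.38 and 6.53. Its signal may therefore also lie near background.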
